A study of Caenorhabditis elegans with 4 samples.

Results

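The *Caenorhabditis elegans* protein LIN-35 was mapped along chromosome II by ChIP-seq, and the sites described are the 753 peaks on that chromosome among the 4794 peaks of the series' combined list (15.7%). They were chosen by chromosome alone, without regard to their strength. Chromatin came from fed hermaphrodite larvae of the first larval stage (L1), grown at 20 °C. The strain, YL409, carries the *unc-119*(ed3) mutation on chromosome III and the transgene vrIs60, which restores *unc-119* and holds a *lin-35* gene under its own promoter that codes for LIN-35 with a GFP and 3xFlag tag, followed by the *dpl-1* 3′-UTR. The *dpl-1* gene itself lies on chromosome II, and whether the stretch of it in the transgene adds to any peak on that chromosome was not tested. All 4 samples share this genotype and stage: 2 are immunoprecipitates taken with an antibody against GFP (replicates 1 and 2) and 2 are inputs. The binding thus reported is that of the tagged protein in whole larvae, and no strain without the tag was analysed here.

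LIN-35 is the worm's only protein of the retinoblastoma family. In the DREAM complex it joins the E2F-like factor EFL-1, its partner DPL-1 and the MuvB proteins at promoters, and the complex holds down cell-cycle genes and, in somatic cells, many genes of the germ line. Worm chromosomes have no single centromere. On autosomes a centre with little recombination and many conserved genes lies between arms that hold more repeats and more fast-evolving gene families.

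Each peak is an interval with the authors' score and a peak number, in coordinates of the WS220 genome build. A peak's place is its rank by score in its list, with ties ordered by peak number, lowest first. Strong and best below mean a low place. Of the chromosome II peaks, 693 (92.0%) sat at the ceiling of the score, 3.94, so the order among them rests on the peak numbers. That a low number means a strong peak is an assumption, since the sources used here do not say what it measures. Below the ceiling, scores did not always follow the numbers. In replicate 2, number 1406 had a score of 2.97 and number 2115 had 3.15. Replicate 1 had 4151 peaks on chromosome II and replicate 2 had 4514, in lists of 26583 and 28727. For like-for-like comparison the nuclear peaks of either replicate were also cut to the 4794 best, of which 762 and 752 lay on chromosome II. Read depth is unknown, since the lists hold no counts. The labels do not say whether the replicates came from separate cultures. With 2 immunoprecipitates there is no test over samples, so differences are set against the values of the replicates, the spread between windows of 1 Mb (SD), or Wilson 95% intervals of shares, which cover counting error only. Genes and sequence at the sites were not analysed here.

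The chromosome as a whole was bound at about the average density of the genome. It carried 49.3 combined peaks per Mb over an extent of 15.3 Mb, against 47.6 per Mb on the other nuclear chromosomes together, a ratio of 1.04. The best 4794 peaks of replicate 1 gave 1.05 and those of replicate 2 gave 1.03. In order of density chromosome II followed III (67.3 per Mb) and I (63.2) and came before IV (46.0), X (37.5) and V (33.1). Its whole windows of 1 Mb held 49.1 ± 16 peaks (SD, n = 15 windows), and those of IV held a mean of 45.9 (n = 17), so that these neighbours in the order lay within the spread along the chromosome. The peaks covered 213 kb, or 1.39% of the chromosome.

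The sites were not spread evenly: the left part of chromosome II held far fewer than the rest. Cut into 3 segments of 5.09 Mb, the chromosome carried 163 combined peaks in the left segment (32.0 per Mb), 313 in the middle (61.5 per Mb) and 277 in the right (54.4 per Mb). From left to right, the 5 windows of 1 Mb in the left segment held 36, 22, 29, 28 and 41 peaks. The next 5 held 65, 63, 58, 74 and 54. The last 5 held 62, 67, 42, 42 and 53. No window of the left segment reached the lowest window elsewhere, although the highest on the left, with 41, came within 1 peak of the lowest on the right. The mean was 31.2 ± 7.40 in the left segment, 62.8 ± 7.60 in the middle and 53.2 ± 11.4 in the right (SD, n = 5 windows each). Near the border of the left and the middle segment the count rose from 41 peaks between 4 and 5 Mb to 65 between 5 and 6 Mb. The edge of these windows does not place the rise more exactly. A drop of like size lay within the right segment, from 67 between 11 and 12 Mb to 42 between 12 and 13 Mb.

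Both immunoprecipitates showed the sparse left segment on their own. The best peaks of replicate 1 numbered 153, 319 and 290 from left to right, and those of replicate 2 numbered 164, 308 and 280. The right segment thus held 1.90 times as many as the left in replicate 1 and 1.71 times in replicate 2, against 1.70 times in the combined list. In the whole replicate lists, which reach far weaker peaks, the same ratio was 1.30 and 1.52. The middle segment held 1.42 times the mean of the outer ones in the combined list, 1.44 times in replicate 1 and 1.39 times in replicate 2.

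**Figure D1:**
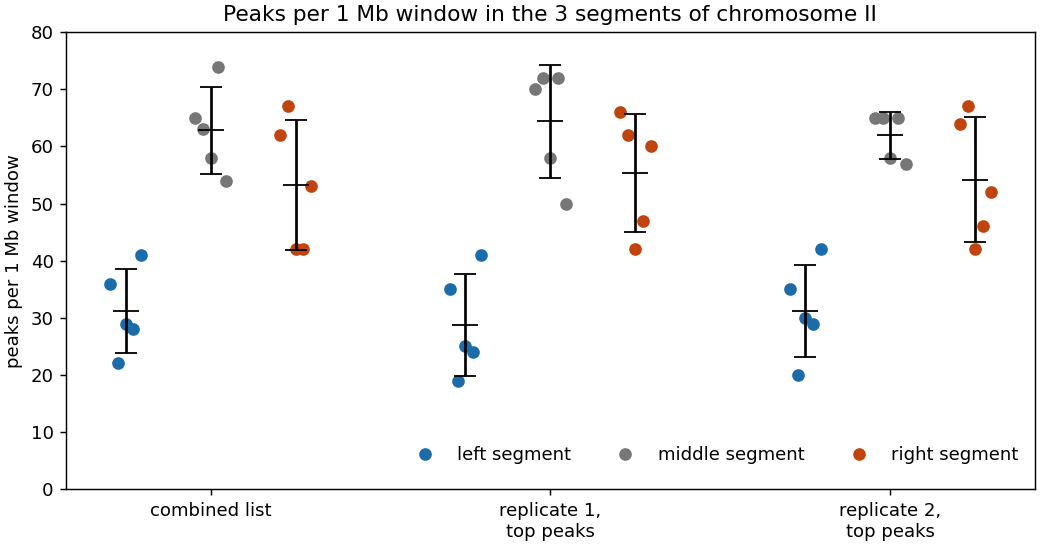
Peaks in each whole 1 Mb window of chromosome II (vertical axis), grouped by the left, middle and right segment, for the combined list and the 4794 best peaks of either replicate. Points are windows and black bars their mean ± SD (n = 5 windows); in the combined list the left windows lie between 22 and 41 and the middle windows between 54 and 74.

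Other chromosomes had uneven ends too, 2 of them in the same direction as II and 3 in the opposite one. The right segment held 1.29 times the peaks of the left on chromosome III and 1.08 times on X, and fewer than the left on I (0.90 times), V (0.74 times) and IV (0.71 times). Chromosome II had the highest ratio of the 6 in the combined list and in the best peaks of either replicate. Its left segment, at 32.0 peaks per Mb, was close to the left segment of V (31.4), whereas its right segment was above that of I (52.8), X (39.6), IV and V (23.1) and below that of III (66.6). The excess in the middle, 1.42 times, lay among those of I (1.40), III (1.41), IV (1.27) and V (1.64), and above that of X (0.96). With 1 value per chromosome, no test was made of these differences.

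**Figure D2:**
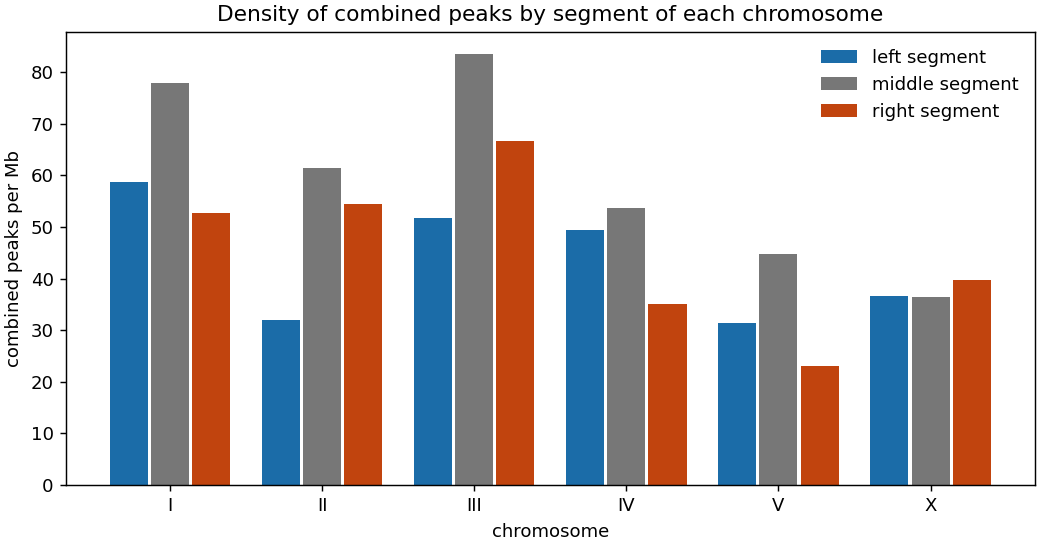
Combined peaks per Mb (vertical axis) in the left, middle and right segments of equal length of the 6 nuclear chromosomes. On chromosome II the left bar stands at 32.0 and the right bar at 54.4, while on IV and V the left bar is the higher of the outer bars.

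The strongest site of the whole list was on chromosome II, at 10563347 to 10563660 in the right segment. Its peak was number 1 in replicate 1 and number 2 in replicate 2, and the midpoints of those peaks lay within 4 bp of its own. The second site of the chromosome was close to its left end, at 216632 to 216935, with place 12 and numbers 14 and 9 in replicates 1 and 2. The third was close to the right end, at 15010408 to 15010735, with place 13 and numbers 16 and 11. Next came 4999183 to 4999483, near the right edge of the left segment, with place 15 and numbers 19 and 14. The strongest sites thus included both ends of the chromosome as well as its interior.

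Of the other 8 among the 12 best sites, 5 were in the right segment. They were 14059739 to 14060034 (place 16), 12459412 to 12459697 (place 21), 14441076 to 14441387 (place 30), 10798482 to 10798747 (place 36) and 11874659 to 11874954 (place 40). The middle segment gave 9716646 to 9716941 (place 25) and 5389987 to 5390254 (place 41), and the left gave 4851688 to 4851958 (place 33). The third best site of the middle segment was at 6250788 to 6251077, with place 60. All 12 overlapped 1 peak in either replicate, none with a number beyond 80 in replicate 1 or 57 in replicate 2. Midpoints differed by at most 12 bp from those of the combined peak, and the 12 peaks were 266 to 328 bp wide. None of the 12 had another combined peak within 1 kb, and the nearest lay 3130 bp away. Of all 753 combined peaks on the chromosome, 95 had a neighbour within 1 kb, so most other sites had none either.

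Chromosome II held somewhat more of the strongest sites than of the list as a whole, which includes X, where strong sites were few. It had 22 of the best 100 combined peaks (Wilson 95% interval 15 to 31.1%), 93 of the best 500 (18.6%, 15.4 to 22.2%) and 172 of the best 1000 (17.2%, 15 to 19.7%). Seen from the chromosome, 2.92% of its peaks were among the best 100, against 2.09% of all nuclear peaks. For the best 500 it was 12.4% against 10.4%, and for the best 1000 it was 22.8% against 20.9%. The share of the whole list, 15.7%, lies within the intervals for the best 100, 500 and 1000, so the surplus does not exceed counting error. The replicates alone had 20 and 22 of their best 100 nuclear peaks on chromosome II, and 92 and 95 of their best 500. In the combined list X had 0, 8 and 46 of the best 100, 500 and 1000, but 665 of all peaks. This lowers the values for all nuclear peaks, and every autosome lay above them for the best 500 and 1000. Chromosome III exceeded II in both, with 13.5% and 25.5% of its peaks, and I did so for the best 1000, with 23.1%. For the best 100 chromosome II had the highest share. A pooled value for the autosomes alone was not computed. Among single autosomes the share of II for the best 500, 12.4%, lay between those of IV (11.3%) and III (13.5%). For the best 1000 its share, 22.8%, lay between those of V (22.3%) and I (23.1%). For the best 500 and 1000, chromosome II thus stayed within the range of the other autosomes.

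Strong sites followed another pattern along the chromosome than the list as a whole. The middle segment, the densest, held 28 of the 93 chromosome II peaks among the best 500, the right segment 44 and the left 21. These were 8.95% of the middle segment's peaks (Wilson 95% interval 6.26 to 12.6%), 15.9% of those in the right (12.1 to 20.7%) and 12.9% of those in the left (8.58 to 18.9%), against 10.4% of all nuclear peaks. The intervals of the middle and the right segment overlap slightly. Replicate 1 had 28 of its best 500 in the middle segment, 45 in the right and 19 in the left, and replicate 2 had 30, 42 and 23. The median place was 1995 in the right segment, 2458 in the middle and 2535 in the left. A smaller share of the middle among the best 500 than among all combined peaks was not particular to chromosome II. The middle held 36 of 105 against 391 of 951 on I, and 28 of 91 against 313 of 805 on IV. On V it held 31 of 78 against 312 of 692, and on III 49 of 125 against 384 of 928. On X the share was not smaller, with 3 of 8 against 215 of 665.

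Further down the list the share of the right segment was lower and that of the middle higher. Of the chromosome II peaks in the best 500, 47.3% were in the right segment, and in the following 500 places 45.6%. In the last 794 places it was 28.7%. The middle segment went from 30.1% to 41.8% over the first of these steps and stood at 46.7% at the end. The left segment was lowest in the second range, with 10 of 79 peaks (12.7%), and held 18.4 to 25.2% in the others. In the replicates' own best peaks the right segment likewise went from 48.9% (replicate 1) and 44.2% (replicate 2) of the best 500 to 38.9% and 34.2% at the end, and the middle from 30.4% and 31.6% to 39.8% and 36.0%. The shares did not move steadily in between: the right segment was lowest, at 32.7% and 32.5%, in the range up to place 3000 (replicate 1) and in that up to place 4000 (replicate 2).

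**Figure D3:**
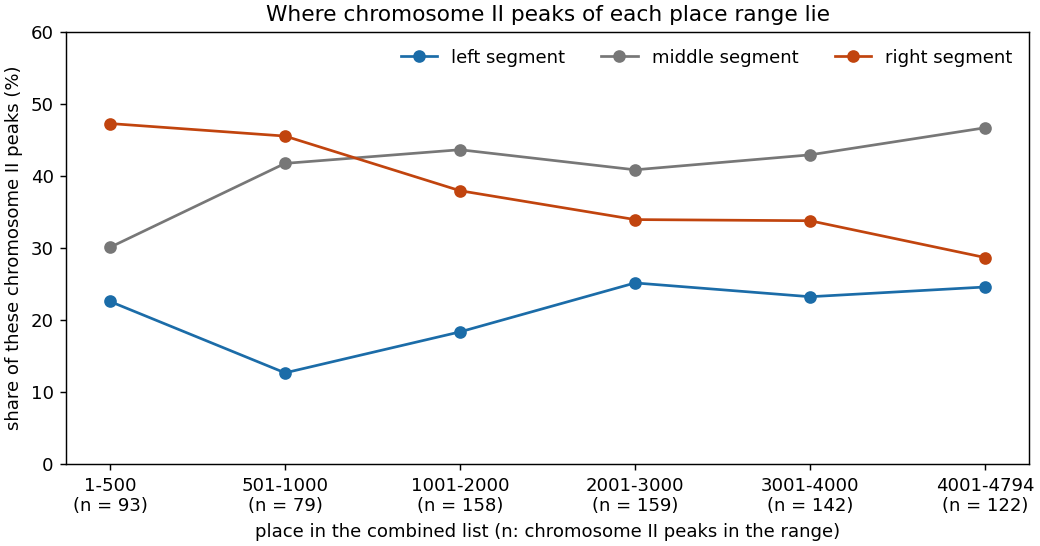
Share of chromosome II combined peaks in each segment (vertical axis, %) for 6 ranges of place in the combined list (horizontal axis, strongest on the left, number of peaks under each range). The right segment goes from 47.3% of the strongest range to 28.7% of the weakest, and the middle from 30.1% to 46.7%.

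The best 500 also left a wide stretch of the left segment nearly bare. By windows of 1 Mb they numbered 7, 1, 2, 2 and 8 from 0 to 5 Mb, then 5, 9, 3, 7 and 5, then 6, 9, 6, 7 and 12. The window between 14 and 15 Mb, near the right end, had the most. The longest distance between neighbouring members of this group was 1232 kb, from the peak at 2451120 to 2451329 (place 421) to that at 3682885 to 3683089 (place 464). In between lay 34 weaker combined peaks. Over the chromosome the median distance between such strong neighbours was 92.6 kb.

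The densest crowd of sites lay around the strongest one. Among 152 windows of 100 kb, which held a median of 4 combined peaks, the fullest was 10500001 to 10600000 with 17. With windows placed in this way it was also the fullest on any chromosome, the highest elsewhere being 16. The strongest site of the genome, at place 1, was its sixteenth peak from the left. Of the other 16, the best had place 767. The median place of all 17 was 2564, against 2286 for all combined peaks of the chromosome. Replicate 1 had 51 peaks in the window and replicate 2 had 54, against a mean of 27.1 and 29.5 over all windows of the chromosome. With windows shifted by 50 kb the fullest on chromosome II held 14 combined peaks, and the other chromosomes were not recomputed.

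Within that window the sites were packed to the left of the strong one. A run of 10 combined peaks fell into 11.3 kb (distance from first to last midpoint), from 10547747 to 10559364, with places from 767 to 4072. The tightest run of 10 was 16.8 kb on chromosome I, 20.6 kb on X, 29.1 kb on III, 30.5 kb on IV and 53.2 kb on V. The best peaks of either replicate gave their tightest run at the same spot, over 10.0 kb in replicate 1 and 11.3 kb in replicate 2. In replicate 1 the closest other run was 15.2 kb, on I, and in replicate 2 it was 20.4 kb, also on I. The last-placed peak of chromosome II lay in the same window, at 10543179 to 10543502 with place 4792. It was number 2087 in replicate 1 but number 17990 in replicate 2.

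Next in number were 2 windows of the middle segment with 15 combined peaks each. The window 5300001 to 5400000 lay near the left edge of that segment. It held 2 of the best 500, at 5389987 to 5390254 (place 41) and 5373293 to 5373533 (place 306). The window 7800001 to 7900000 held 1, at 7860344 to 7860593 (place 188). In all, 13 windows (8.55%) held 10 or more combined peaks, against 7.91% of windows on the other nuclear chromosomes together. For single chromosomes this ranged from 2.26% on X to 21.2% on III.

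Empty stretches gathered in the left segment. Of 17 distances of 100 kb or more between neighbouring peaks, 12 were there, 2 in the middle and 3 in the right. The 3 windows of 100 kb with no combined peak were all in the left segment and began at 1600001, 3300001 and 3700001. Empty windows made up 1.97% of chromosome II and from 0.730% (III) to 17.2% (V) of the others. The median distance between neighbours was 17.9 kb in the left segment, 9.48 kb in the middle and 9.77 kb in the right, and 10.7 kb over the chromosome.

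The longest distance was 234 kb, between the peaks at 1501979 to 1502302 (place 3913) and 1736415 to 1736738 (place 4252). The next was 219 kb, between 3209305 to 3209628 (place 4223) and 3428286 to 3428609 (place 3880), neither of which overlapped a peak of replicate 1. On the right, 150 kb separated 14645331 to 14645654 (place 3866) from 14794876 to 14795224, a strong site with place 143. The remaining 2 of the 5 longest were 137 kb, from 2059031 to 2059354 (place 1713) to 2195561 to 2195884 (place 1910), and 135 kb, from 950400 to 950723 (place 3456) to 1084905 to 1085228 (place 2154).

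These stretches were not blank in the replicates. The 17 together spanned 2195 kb, 14.4% of the chromosome, and held 386 peaks of replicate 1 and 353 of replicate 2. That is 17.6 and 16.1 peaks per 100 kb. Because the stretches were chosen for holding no combined peak, the like set is the replicate peaks outside the combined list, of which the whole chromosome held 22.3 and 24.4 per 100 kb and its left segment 19.2 and 17.9. The best number in the stretches was 2645 in replicate 1 and 4437 in replicate 2. The median numbers were 17118 and 18733, against 15600 and 16555 for all peaks outside the list on the chromosome and 16148 and 18096 for those in the left segment. Of those of replicate 1, 84 (21.8%, Wilson 95% interval 17.9 to 26.1%) overlapped replicate 2, against 29.7% of its peaks outside the list on the chromosome and 22.9% in the left segment. Of those of replicate 2, 86 (24.4%, 20.2 to 29.1%) overlapped replicate 1, against 27.8% on the chromosome and 25.8% in the left segment. The interval for replicate 1 holds the value of the left segment but not that of the chromosome, and the interval for replicate 2 holds both.

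**Figure D4:**
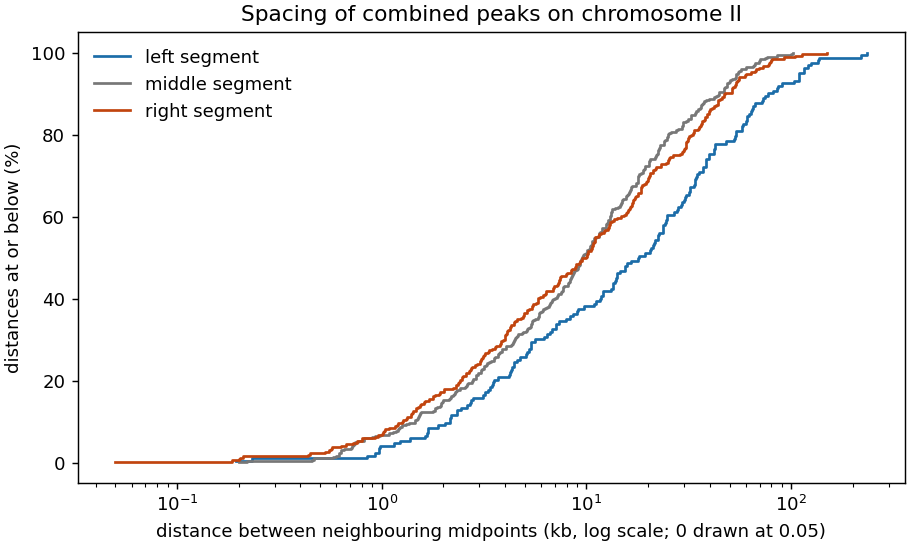
Distances between the midpoints of neighbouring combined peaks on chromosome II (horizontal axis, kb, log scale) and the percentage of distances at or below each (vertical axis), by segment. The curve of the left segment, with a median of 17.9 kb, lies to the right of those of the middle (9.48 kb) and right segments (9.77 kb).

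At the other end of the scale, 49 of 752 neighbour distances (6.52%) were 1 kb or less, within the range of 4.82% (X) to 8.71% (IV) on the other chromosomes. They joined 95 peaks into 43 pairs and 3 triples, of which 14 peaks were in the left segment, 43 in the middle and 38 in the right. With each pair or triple taken as 1 site, 704 sites remained. Strong peaks were rarely among them: 4 of the 93 best had a neighbour within 1 kb (4.30%), against 82 of the 581 beyond place 1000 (14.1%). Of the 49 close neighbours, 8 overlapped each other and 9 shared a peak in at least 1 replicate, so these few need not be separate sites.

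The closest pair was a single interval entered in the list more than once. The interval 13199678 to 13200045 was listed with 2 peak numbers, 192 and 2624, and is the only position in the combined list that occurs more than once. Each replicate had 2 peaks under it. In replicate 1 these were 13199723 to 13199873 (number 184) and 13199845 to 13200144 (number 874), and in replicate 2 they were 13199682 to 13199947 (number 206) and 13199878 to 13200040 (number 4157). The next closest were 14561657 to 14561834 and 14561769 to 14562092, with midpoints 185 bp apart, and 4701439 to 4701762 and 4701737 to 4701852, 194 bp apart. Peaks of both pairs overlapped each other. The triples lay at 9060392 to 9062023, 10558302 to 10559364 (inside the crowd beside the strongest site) and 11634085 to 11636088.

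Nearly all chromosome II sites overlapped a peak in both replicates. This held for 720 of 753 (95.6%, Wilson 95% interval 93.9 to 96.9%), against 94.8% of all nuclear combined peaks. Because these replicates are the ones behind the combined list, the overlap is a description and no independent check. The share was 92.6% in the left segment (87.6 to 95.7%), 95.2% in the middle (92.2 to 97.1%) and 97.8% in the right (95.4 to 99.0%), with intervals that overlap. By place it was 330 of 330 down to place 2000, and 101 of 122 (82.8%) beyond place 4000.

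The other 33 all overlapped replicate 2 and none replicate 1. The same imbalance ran through the whole list, in which 243 of the 4794 peaks overlapped replicate 2 only and 4 overlapped replicate 1 only. They stood low, with a median place of 4228, and each had the fixed width of 324 bp. The best of them was at 5292157 to 5292480, with place 2270 and number 1700 in replicate 2. Its nearest peak of replicate 1 was 410 bp away, from midpoint to midpoint. The next 3 were 8997440 to 8997763 (place 2944), 5782062 to 5782385 (place 3136) and 1315233 to 1315556 (place 3163), with the nearest replicate 1 peak 4990, 1802 and 3753 bp away. For 14 of the 33 that distance was 1 kb or less. Replicate 1 had 272 peaks per Mb on the chromosome, and the share at other positions was not computed. The count is thus no sign of a near match.

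The replicates ordered the shared sites alike at the top and parted further down. Over the 720 sites, Spearman's rho of the peak numbers was 0.77, a description across peaks that share their libraries. On the other chromosomes it ranged from 0.57 (X) to 0.82 (III). It was 0.82 in the right segment, 0.74 in the middle and 0.73 in the left. The order of the combined list was closer to replicate 2 (rho of 0.97 with place) than to replicate 1 (0.86), and on each other chromosome it was also closer to replicate 2. Numbers differed by more than a factor of 2 at 168 sites (23.3%), and by a median factor of 1.44. Both lay within the ranges of the other chromosomes, 21.4% (I) to 25.9% (X) and 1.41 (I) to 1.48 (X). Midpoints of the replicate peaks lay a median of 23 bp apart in all, 19 bp in the right segment, 22.5 bp in the left and 29 bp in the middle.

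The disagreement was lopsided. Among the 720 sites, 54 had a number beyond 10000 in replicate 1, but 3 in replicate 2. These counts were not made on the other chromosomes, where the order of the combined list was also closer to replicate 2. They are thus not shown to be particular to chromosome II. The lowest in replicate 1 was the site at 3959763 to 3960086, with number 26453 there and 3662 in replicate 2. Another, at 11495317 to 11495640, had place 2239 with numbers 25286 and 1813. In the opposite direction, the site at 8525325 to 8525648 had number 2139 in replicate 1 and 14450 in replicate 2, and the site at 1086524 to 1086847 had 2194 and 13244. Some of these sites thus stood high in 1 replicate and near the end of the other.

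Among the 200 best sites of the chromosome the replicates differed less, by a median factor of 1.35, and 15 differed by more than a factor of 2. The largest factor was 3.64, at 10798482 to 10798747, with numbers 80 and 22 in replicates 1 and 2. The site at 4828131 to 4828387 had 35 and 122, that at 6250788 to 6251077 had 30 and 99, and that at 14856951 to 14857118 had 565 and 1721. The fifth, at 14441076 to 14441387, had 20 and 57. With 1 exception the numbers of these sites were at most 122, in lists of 26583 and 28727 peaks.

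**Figure D5:**
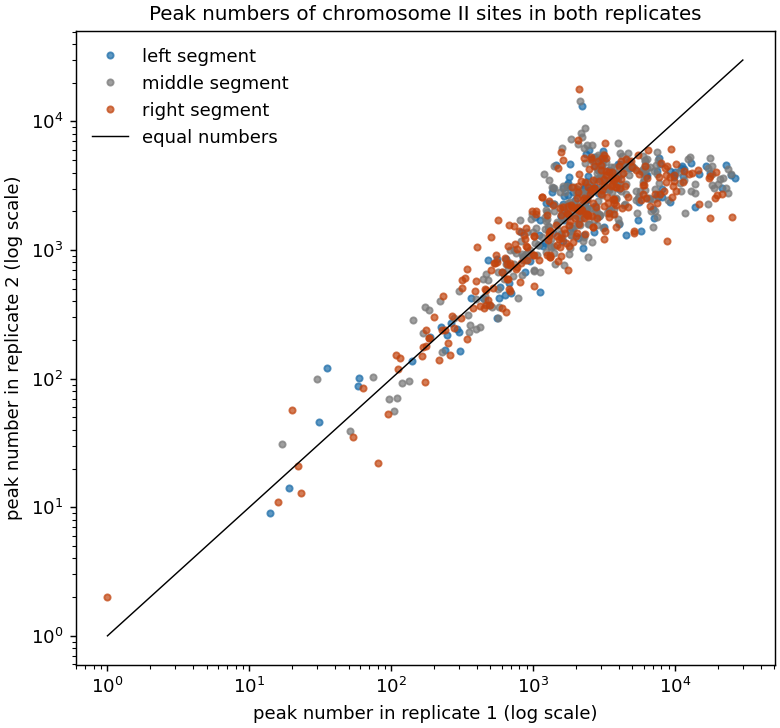
Peak numbers of the 720 chromosome II sites found in both replicates, in replicate 1 (horizontal axis, log scale) and replicate 2 (vertical axis, log scale), coloured by segment, with a line of equal numbers. Points follow the line at low numbers, and at high numbers 54 sites pass 10000 in replicate 1 against 3 in replicate 2. All are sites of the combined list, whose order is closer to replicate 2.

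Beyond the combined list the replicates held many more peaks on chromosome II, most of them in 1 replicate only. Of all replicate 1 peaks on the chromosome 42.2% overlapped replicate 2, against 41.8% on all nuclear chromosomes, and of all replicate 2 peaks 39.6% overlapped replicate 1, against 39.4%. Of 3412 replicate 1 peaks outside the list, 1015 (29.7%, Wilson 95% interval 28.2 to 31.3%) overlapped replicate 2, against 29.3% of such peaks on all nuclear chromosomes. Of 3723 in replicate 2, 1035 (27.8%, 26.4 to 29.3%) overlapped replicate 1, against 27.5%. The share for replicate 1 was lowest in the left segment, 22.9% (20.3 to 25.6%), with 31.9% (29.4 to 34.5%) in the middle and 33.2% (30.6 to 35.9%) in the right. In replicate 2 it was 25.8%, 27.2% and 29.8%, with intervals that overlap. The lists are thinner on the left, with 222 and 211 peaks per Mb in replicates 1 and 2 against 304 and 353 in the middle, and the part of this in the lower share was not tested.

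Every chromosome II peak with a number up to 1000 in either replicate, 173 in replicate 1 and 171 in replicate 2, overlapped a combined peak. The same share on all nuclear chromosomes was not computed. Because these replicates are behind the combined list, this overlap is no independent check. The first replicate 1 peak left out was number 1831, at 9057609 to 9057908. It overlapped no peak of replicate 2, and the midpoint of the nearest combined peak was 370 bp away. The best peak of replicate 1 that was shared and yet left out was number 2274, at 5338841 to 5339140, which met number 13136 in replicate 2. In replicate 2 the first peaks left out were number 3747, at 9324917 to 9325252 and unshared, and number 3805, at 10804481 to 10804816, which met number 6200 in replicate 1.

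Peak width followed place. The fixed width of 324 bp applied to 521 of the 753 peaks (69.2%), but to 0 of the 100 best on the chromosome, whose median was 242 bp, and to 443 of the 453 beyond the best 300 (97.8%). On the other nuclear chromosomes 72.2% had this width. The widest peak of chromosome II, and of the combined list, was 579 bp, at 14251342 to 14251920 with place 255, and it overlapped 1 peak in either replicate. After it came the interval listed with 2 numbers, at 368 bp, and the strong site beside the empty stretch on the right, 14794876 to 14795224, at 349 bp. All 5 peaks wider than 324 bp were in the right segment.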

How the data were processed

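ChIP-seq peak lists of 2 immunoprecipitates and a combined list were used; the 2 inputs have no list here. Worms were fixed in 2% formaldehyde and chromatin was sonicated, per the labels' protocols. Peaks carry the source spp_via_IDR and WS220 coordinates, per the file headers and source column, which names the SPP caller and the irreproducible discovery rate. How reads were aligned, which versions and thresholds applied, how input was used and how the combined list was made is not given in the sources used here. The deposited score has no named scale, so it was used for ranking, and in 1 alternative for a rank correlation between replicates.

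Overlap meant at least 1 bp. Where several replicate peaks overlapped a site, the lowest peak number was used. The extent of a chromosome was the largest peak end in any list, and positions were assigned by midpoint to 3 equal segments and to whole windows of 1 Mb or 100 kb. Mitochondrial peaks were left out. Values were computed in Python 3.11.15 with pandas 2.3.3, numpy 2.4.6 and scipy 1.17.1, and the procedures were tested on simulated lists.

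The sites, comparisons and alternatives were chosen with earlier results of these data known. Sites named by a set rule were the 12 best, the 3 best of each segment, those in 1 replicate only (the 4 best), the ends of the 5 longest distances, the 3 fullest windows, the 5 largest factors between replicates among the 200 best, the 3 widest, the closest 3 pairs, repeated positions and the last-placed. Other named sites, the runs of 10, the triples and the ratio of right to left were chosen after values had been seen. The gene table at hand uses the build WBcel235, so no site was given a gene, and no sequence was read.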

Additional observations from a re-analysis of the deposited data

How the results depend on the processing

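Of 46 alternative values, 26 stayed within the spread between replicates, within 1.5 times for counts or within the counting interval. Of the others, 18 were counted as moved and 2 changed direction. Those counted as moved include the 2 alternatives of the Spearman correlation, for which no limit was set. The density of chromosome II against the other chromosomes, 1.04, became 0.98 with X left out and 1.27 among the best 500 peaks; without replicate 1 or 2 it was 1.03 to 1.05. The middle to outer ratio, 1.42, became 0.86 among the best 500, 1.49 in whole windows, 1.19 over all peaks of replicate 1 and 1.32 over all of replicate 2. The right to left ratio, 1.70, became 2.10, 1.71, 1.30 and 1.52 in that order, and 1.71 to 1.90 without replicate 1 or 2. The cause was not tested. The share of sites in both replicates, 95.6%, became 89.8% with coverage of at least 50% of the site, 86.1% with midpoints within 100 bp and 88.2% with the top 10000 peaks. The Spearman correlation of peak numbers, 0.77, became 0.79 with single partners and 0.30 with scores, many of which tie at the ceiling. Outside the list, 29.7% and 27.8% became 15.1% and 13.8% by midpoints, and 15.3% and 17.7% with the top 10000 peaks. The fullest window held 12.5 to 22 peaks per 100 kb over window sizes of 50 and 200 kb and a shift of 50 kb. The alternatives of the right to left ratio and those over all replicate peaks were chosen after seeing the data. No paired analysis was possible because the inputs that share replicate numbers with the immunoprecipitates have no values here. Depth is unknown, so weak peaks cannot be weighed by reads.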
